A study of Homo sapiens with 4 samples.

Results

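The genes described here build the ribosome: a set of 50 genes chosen by symbol for their known roles in ribosome biogenesis and transcription by RNA polymerase I. All 50 were found among the 48162 genes of the deposited expression table, and 49 of them were among the 12080 genes expressed highly enough to be tested. They were placed in 5 groups by the step they serve, namely RNA polymerase I and its factors with 7 genes, the small nucleolar ribonucleoproteins (snoRNPs) with 8, the small subunit with 13, the large subunit with 18, and nucleolar proteins with several functions with 4. RNA was sequenced from MDA-MB-231, an established human breast cancer cell line, in 2 libraries treated with MGH-CP1 and 2 treated with vehicle control. MGH-CP1 is a small molecule that occupies the lipid pocket of the TEAD transcription factors and blocks their autopalmitoylation. It was given for 24 h at 10 µM per the labels (10 mM in the published methods), and the vehicle columns of the table are headed DMSO. All 4 libraries came from the same line grown in DMEM with serum and antibiotics, with no other allele or agent in either group, and the labels do not say whether replicates were separate cultures, so the p-values measure only the spread between these libraries.

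Ribosomes are assembled mainly in the nucleolus, where RNA polymerase I copies the ribosomal DNA repeats into a long precursor RNA. The snoRNPs guide methylation and pseudouridylation of that precursor, while a large set of processing factors, helicases and GTPases fold and cleave it into the RNAs of the small and the large subunit. Growing and dividing cells spend much of their transcription on this pathway, and enlarged nucleoli are a long-known feature of many tumour cells.

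The libraries held 25455533 and 25508824 fragments on listed genes after vehicle control and 17997221 and 17577930 after MGH-CP1, and mitochondrial genes took 0.418 to 0.447% and 1.53 to 1.57% of them. Levels are given as FPKM, fragments scaled by gene length and by the library's total, which are shares of a library, so that less RNA per cell and a change in the mixture of cells cannot be told apart from a change within each cell. Of 4 genes that mark this mesenchymal-like line, all were abundant, with VIM at 259 to 281 FPKM and CD44 at 198 to 221 FPKM over the 4 libraries, while the luminal or epithelial markers were mixed. ESR1 and PGR stood at no more than 0.0243 FPKM and CDH1 at 0.289 to 0.638 FPKM, whereas GATA3 was at 4.17 to 5.65 FPKM and EPCAM at 12.4 to 16.4 FPKM. The leukocyte and endothelial markers CD3E and CDH5 were at 0 in every library, and the leukocyte markers PTPRC and CD79A did not exceed 0.0321 and 0.219 FPKM. Of the fibroblast markers, DCN did not exceed 0.0269 FPKM and COL1A1 was at 1.31 to 1.83 FPKM. CAV1 fell (log2 fold change -0.49) and S100A4 rose (0.79) among the 4 marker genes after MGH-CP1.

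Ribosome biogenesis genes were lower after MGH-CP1 at nearly every step. Of the 49 members tested, 43 were called lower and 0 higher by limma on log2(FPKM + 1) at an adjusted p under 0.05, against 23.8% of all genes tested called lower and 27.1% called higher. At an unadjusted p under 0.05, 0 members were higher as well, and limma voom on the fragments also called 0 higher. The median log2 fold change of the members was -0.45 (SD 0.051 over the 4 pairs of libraries), whereas that of all genes tested was 0.014, and 46 of the 49 values lay below 0. A fall of at least 0.5 on the log2 scale was called for 22 members, and for 6.16% of all genes tested. In 44 of the 50 members both MGH-CP1 libraries lay below both vehicle control libraries, an ordering seen in 37.4% of genes tested. Summed over the 50 members, expression was 2459.8 and 2452 FPKM after vehicle control and 1680.2 and 1724 FPKM after MGH-CP1. These calls depend on limma's pooling of variance across genes, because an exact permutation test of 2 libraries against 2 cannot give a p below 0.333, and without that pooling 0 members were called lower and 37 were lower at an unadjusted p under 0.05. With the library totals taken without mitochondrial genes the number of members called lower was again 43.

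The changes ran from a fall of 0.88 on the log2 scale for UTP20, a scaffold of the small subunit processome, to a difference of 0.071 for NOP10, a small protein of the H/ACA snoRNPs, which was not called. Only 0.811% of the genes tested had a lower log2 fold change than UTP20. The 6 members not called in either direction were POLR1C, RRN3, TAF1D, NOP10, TBL3 and WDR74. PPAN, a large subunit factor, was not tested because its mean level was under 1 FPKM.

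**Figure D1:**
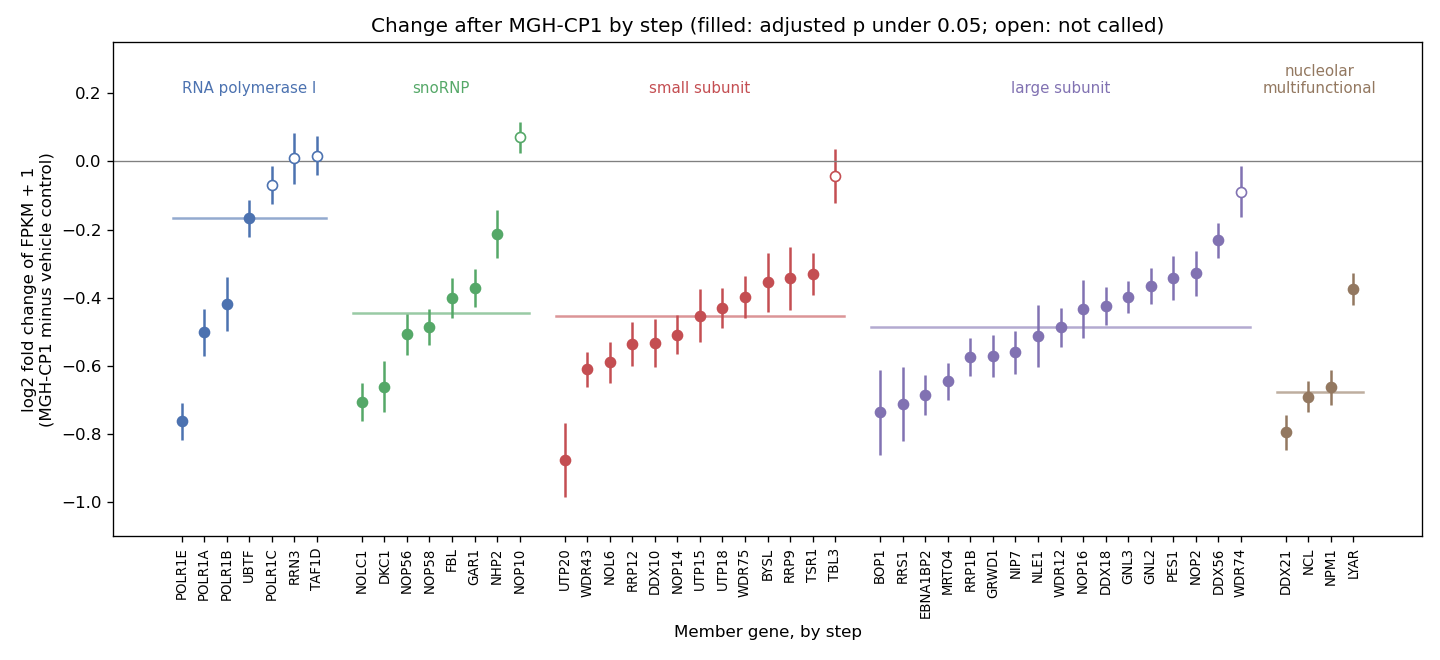
Log2 fold change of FPKM + 1 (MGH-CP1 minus vehicle control, vertical axis) of the 49 members tested, grouped by step, with bars of 1 standard error and a horizontal line at each group's median. Filled points passed an adjusted p under 0.05 and open points did not; the 4 nucleolar multifunctional genes have the lowest median, -0.68, and the 7 RNA polymerase I genes the highest, -0.17.

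Because the members moved together, their promoters were read from RefSeq (build GRCh38.p14, 250 bases before to 50 bases after the transcript start), where 42 of the 50 members had an entry and RRP1B, POLR1E, NOP58, RRS1, RRP12, DDX18, NOLC1 and BOP1 had none. The search was for CACGTG, the palindromic E-box read by basic helix-loop-helix leucine zipper factors such as MYC and USF, and for GGAATG, the core of the sites bound by TEAD factors, each on both strands. The windows of the 3 members with the largest falls among those that could be printed, UTP20, DDX21 and NCL, are shown with that of NOP10, the member with the highest fold change, whose window was added after its value was seen. Each is written 5′ to 3′ on the strand of the gene with CACGTG in capitals. DDX21 has 2 annotated starts.
UTP20, chr12:101279855-101280154, plus strand: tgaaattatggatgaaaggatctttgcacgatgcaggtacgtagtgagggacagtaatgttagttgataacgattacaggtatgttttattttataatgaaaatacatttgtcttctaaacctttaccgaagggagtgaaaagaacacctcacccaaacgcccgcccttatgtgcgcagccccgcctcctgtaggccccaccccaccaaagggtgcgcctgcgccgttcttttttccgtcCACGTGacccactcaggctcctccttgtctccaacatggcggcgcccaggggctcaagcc
DDX21 first start, chr10:68955920-68956219, plus strand: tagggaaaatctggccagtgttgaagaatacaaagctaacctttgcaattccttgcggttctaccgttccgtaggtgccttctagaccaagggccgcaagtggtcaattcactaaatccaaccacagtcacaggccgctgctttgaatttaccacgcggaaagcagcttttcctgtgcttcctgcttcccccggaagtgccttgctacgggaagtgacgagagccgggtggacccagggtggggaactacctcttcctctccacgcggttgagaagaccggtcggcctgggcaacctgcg
DDX21 second start, chr10:68956397-68956696, plus strand: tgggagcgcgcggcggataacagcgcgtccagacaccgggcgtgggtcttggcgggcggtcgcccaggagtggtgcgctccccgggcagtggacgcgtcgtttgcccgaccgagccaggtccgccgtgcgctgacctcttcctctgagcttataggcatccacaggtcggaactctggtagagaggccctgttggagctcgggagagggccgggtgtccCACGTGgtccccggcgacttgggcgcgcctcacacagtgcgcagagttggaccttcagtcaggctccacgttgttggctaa
NCL, chr2:231464435-231464734, minus strand: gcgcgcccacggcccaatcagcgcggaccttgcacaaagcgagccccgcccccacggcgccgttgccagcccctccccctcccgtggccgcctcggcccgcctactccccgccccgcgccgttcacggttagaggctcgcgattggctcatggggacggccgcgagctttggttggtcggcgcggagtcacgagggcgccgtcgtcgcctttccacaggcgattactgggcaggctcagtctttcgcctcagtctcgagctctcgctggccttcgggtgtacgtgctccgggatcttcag
NOP10, chr15:34343087-34343386, minus strand: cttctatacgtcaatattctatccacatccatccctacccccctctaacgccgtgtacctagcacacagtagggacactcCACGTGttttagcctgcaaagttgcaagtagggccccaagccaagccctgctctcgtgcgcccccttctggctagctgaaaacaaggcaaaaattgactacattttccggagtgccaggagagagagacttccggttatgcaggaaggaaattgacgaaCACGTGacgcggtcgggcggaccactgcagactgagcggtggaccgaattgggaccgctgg
The E-box of UTP20 began 10 bases before the transcript start and that of DDX21 31 bases before its second start. The NCL window and the first DDX21 window held no CACGTG, and the NOP10 window held 2, beginning 170 and 11 bases before the start.

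An E-box of this form was found in 19 of the 42 members with a promoter entry (45.2%), compared with 12.8% of 8492 genes tested and 8.77% of all 27305 genes in the promoter table. Among the other ribosome biogenesis genes, described further on, it was in 30 of 103 with an entry (29.1%). Counted by window, it was in 20 of 53 member windows (37.7%) and in 9.31% of the windows of genes tested. In all 19 members it lay within 100 bases of a transcript start, and EBNA1BP2, NOP10 and UTP18 had more than 1. Of the 35 members called lower with a promoter entry 18 held it (51.4%), and of the 7 others 1 did, NOP10. GGAATG was in 7 of the 42 members (16.7%), beside 15.1% of genes tested and 16.7% of all genes in the table. Such a match only says that the letters are in the window. Sequence outside these windows was not searched for either motif, and binding was not measured in these libraries.

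**Figure D2:**
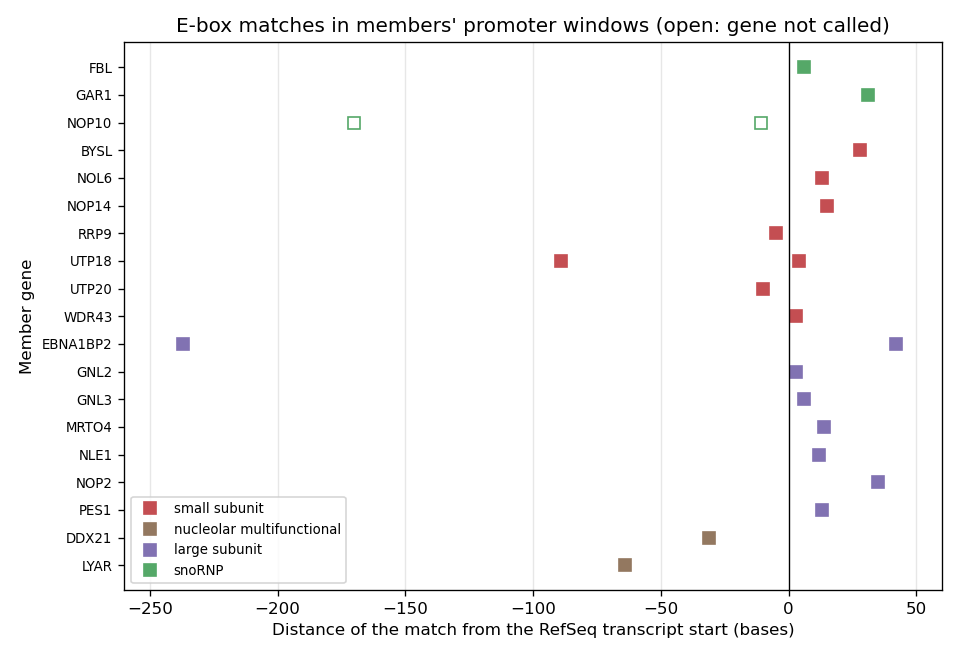
Distance in bases of each CACGTG match from the RefSeq transcript start (horizontal axis, 0 is the start) in the 19 members that hold one, coloured by step, with an open symbol where the gene was not called. Most matches lie close to the start, and those farthest upstream are in EBNA1BP2, at -237, and NOP10, at -170.

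Among the RNA polymerase I genes, 4 of 7 were called lower, beside 23.8% of all genes tested. The other 3 were not called, and the median of -0.17 (SD 0.041) was the highest of the members' 5 steps. In the wider list described further on, the RNA polymerase I genes had the lowest median by step, -0.35. POLR1E, the polymerase-associated factor also known as PAF53 (chr9:37485932-37503694, plus strand, in hg19), was at 24.4 and 24.6 FPKM after vehicle control and 14.0 and 14.1 FPKM after MGH-CP1. The fall amounted to -0.76 on the log2 scale (standard error 0.055, limma adjusted p = 3.84e-05), a loss of 42.8% of its mean level. POLR1A, the largest subunit, was at 16.0 and 16.0 FPKM against 10.4 and 11.6 FPKM and fell by 0.50 (standard error 0.069, adjusted p = 0.000641). POLR1B, the second-largest subunit, was at 11.1 and 11.9 FPKM against 7.84 and 8.89 FPKM and fell by 0.42 (standard error 0.078, adjusted p = 0.00288). Both MGH-CP1 libraries lay below both vehicle control libraries in each of these genes.

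POLR1C, a subunit that RNA polymerase I shares with RNA polymerase III, had close levels in all libraries, 18.9 and 19.2 FPKM after vehicle control and 18.3 and 18.0 FPKM after MGH-CP1, and was not called (-0.069, 95% interval -0.20 to 0.058). UBTF, the architectural factor that binds along the ribosomal DNA, was at 25.6 and 26.4 FPKM against 22.5 and 23.5 FPKM. Its fall of 0.17 passed the threshold (adjusted p = 0.0336) but lost the call whichever library was left out, with adjusted p from 0.0555 to 0.16, and without a filter on low values (adjusted p = 0.0677). The groups overlapped for the remaining initiation factors. RRN3, which joins the polymerase to the promoter-bound factors, was at 12.5 and 11.1 FPKM against 12.2 and 11.6 FPKM (0.0090, 95% interval -0.16 to 0.18). TAF1D, a subunit of the promoter selectivity factor SL1, was at 18.8 and 17.8 FPKM against 18.8 and 18.4 FPKM (0.017, 95% interval -0.12 to 0.15). POLR1C, RRN3 and TAF1D all overlap genes on the opposite strand whose fragment numbers are of the same order or larger, for example XPO5 with 2620 to 5770 fragments per library against 595 to 923 for POLR1C, and whether fragments were assigned by strand is not given in the sources used here.

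**Figure D3:**
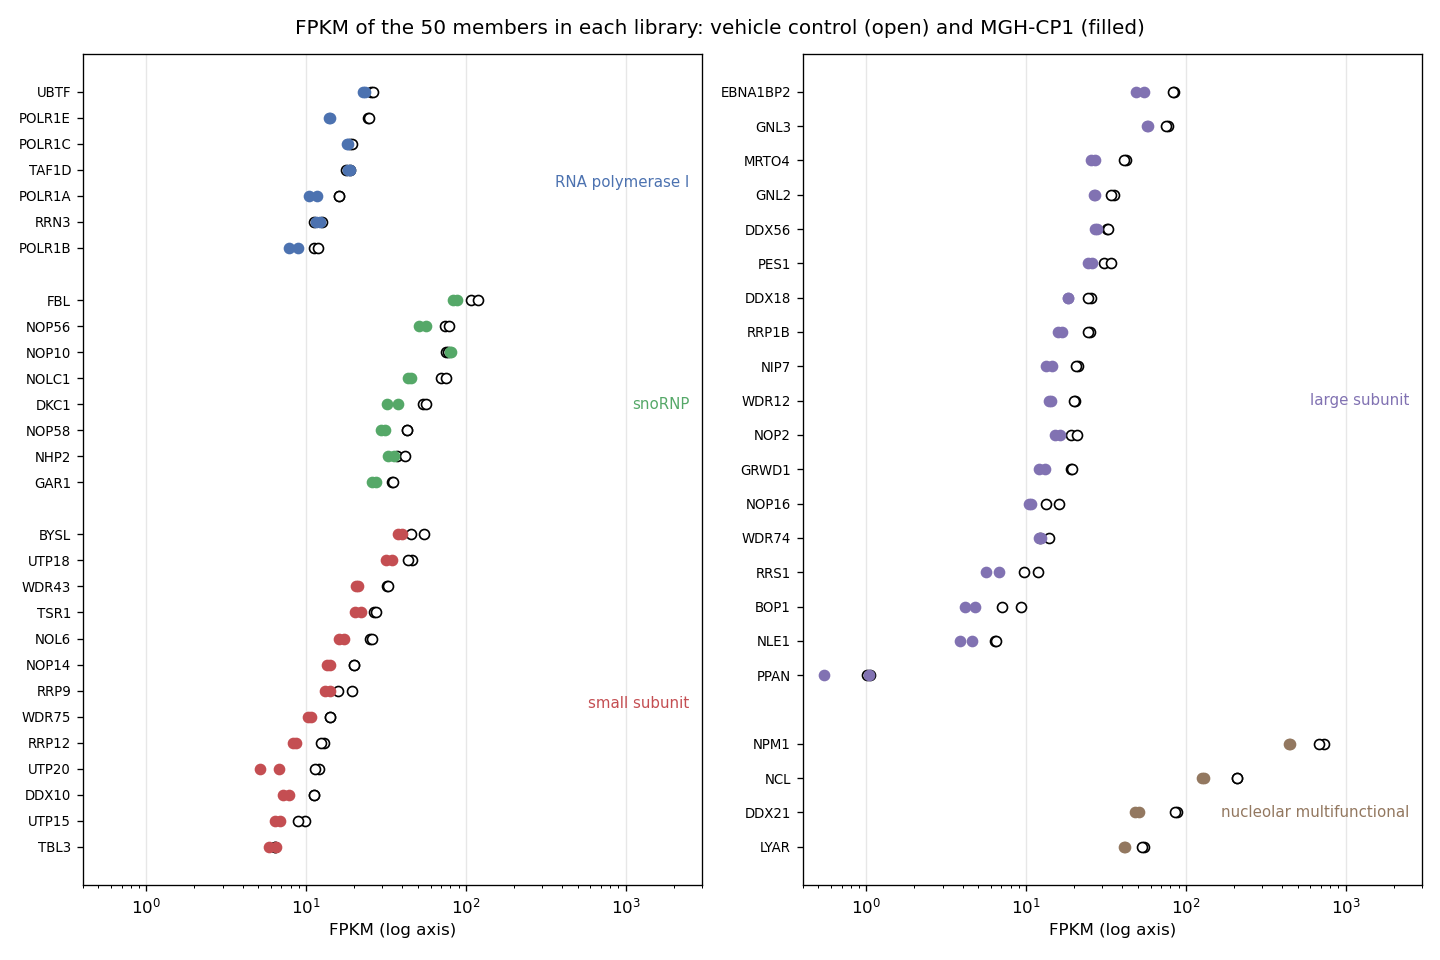
FPKM of each of the 50 members in each library on a log axis, with open points for the 2 vehicle control and filled points for the 2 MGH-CP1 libraries, sorted within each step by level. The filled points lie left of the open points for 44 genes. The levels run from 0.542 FPKM for PPAN to 729 FPKM for NPM1.

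The snoRNP genes were called lower for 7 of 8 members, beside 23.8% of all genes tested. Their median was -0.44 (SD 0.051). NOLC1, a nucleolar chaperone of snoRNPs, showed the largest fall of this step, from 70.2 and 75.5 FPKM to 43.1 and 45.4 FPKM (log2 fold change -0.71, standard error 0.056, adjusted p = 5.67e-05). The C/D core, which carries 2′-O-methylation, has 3 proteins among the members, and these fell by 24.6 to 30.0% of their mean level. The remaining core protein, SNU13, listed as NHP2L1, is not a member and fell by 16.4% (-0.25, adjusted p = 0.0033). NOP56 went from 74.1 and 78.3 FPKM to 50.8 and 55.9 FPKM (-0.51, adjusted p = 0.000327). NOP58, its partner, went from 43.0 and 42.9 FPKM to 31.4 and 29.4 FPKM (-0.49, adjusted p = 0.000231). The methyltransferase itself, FBL or fibrillarin, went from 108 and 119 FPKM to 83.3 and 87.8 FPKM (-0.40, adjusted p = 0.000842).

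The H/ACA core, which carries pseudouridylation, was called lower for 3 of its 4 proteins. Its catalytic subunit DKC1 (dyskerin) was at 54.1 and 56.6 FPKM after vehicle control and 32.0 and 37.4 FPKM after MGH-CP1, and fell by 37.3% of its mean level (log2 fold change -0.66, standard error 0.075, adjusted p = 0.000256). GAR1 was at 34.4 and 34.9 FPKM against 25.6 and 27.5 FPKM (-0.37, adjusted p = 0.000973). NHP2 was at 37.3 and 41.6 FPKM against 35.5 and 32.3 FPKM and passed the threshold narrowly (-0.21, adjusted p = 0.0358). That call was lost without the second vehicle control library, when its fold change was -0.13, or without the second MGH-CP1 library, when it was -0.15, and also without a filter on low values (adjusted p = 0.176). NOP10 (chr15:34633917-34635378, minus strand, in hg19), the smallest of the core proteins, was at 74.7 and 77.1 FPKM against 80.4 and 79.1 FPKM, the only member with both MGH-CP1 libraries above both vehicle control libraries, and was not called (0.071, 95% interval -0.037 to 0.18). The ratio of the most to the least abundant of these 4 transcripts was 2.17 and 2.21 after vehicle control and 3.13 and 2.88 after MGH-CP1.

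The small subunit genes were called lower for 12 of 13 members, beside 23.8% of all genes tested. Their median was -0.45 (SD 0.032). UTP20 (chr12:101673887-101780394, plus strand, in hg19) had the largest fall of any member, from 12.1 and 11.4 FPKM to 5.17 and 6.80 FPKM, and lost 49.1% of its mean level (log2 fold change -0.88, standard error 0.11, adjusted p = 0.000402). The MGH-CP1 replicates of UTP20 differed more than those of most members, and its fold change ranged from -1.05 to -0.71 over the alternatives. WDR43, the human counterpart of yeast Utp5, went from 32.0 and 32.3 FPKM to 21.0 and 20.4 FPKM (-0.61, adjusted p = 7.82e-05). NOL6, the human counterpart of yeast Utp22, went from 25.1 and 25.9 FPKM to 16.0 and 17.2 FPKM (-0.59, adjusted p = 0.000154). The groups did not overlap in any of them. RRP12, a factor in nuclear export of preribosomes, was at 13.0 and 12.4 FPKM against 8.31 and 8.59 FPKM (-0.54), and the helicase DDX10 at 11.3 and 11.2 FPKM against 7.14 and 7.77 FPKM (-0.53).

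Further small subunit factors fell by less. NOP14 had a log2 fold change of -0.51, UTP15 of -0.45, UTP18 of -0.43 and WDR75 of -0.40, all called. TSR1, a late cytoplasmic factor, was at 26.5 and 27.2 FPKM after vehicle control and 20.3 and 22.1 FPKM after MGH-CP1 (-0.33, adjusted p = 0.00274). BYSL (bystin), needed for processing of the small subunit RNA, was at 45.1 and 54.8 FPKM against 37.7 and 39.7 FPKM. Its fall of 0.35 (adjusted p = 0.00967) lost the call without the first MGH-CP1 library (adjusted p = 0.0607) or without a filter on low values (adjusted p = 0.12), and shrank to 0.22 without the second vehicle control library. RRP9, a protein of the U3 snoRNP, was at 15.8 and 19.3 FPKM against 13.0 and 14.1 FPKM and fell by 0.34 (adjusted p = 0.0159), a call that was lost without the second vehicle control library, when the value was -0.21, without the first MGH-CP1 library, or without a filter on low values (adjusted p = 0.138). TBL3, the counterpart of yeast Utp13, was the member of this step that was not called, with overlapping groups of 6.35 and 6.43 FPKM against 5.84 and 6.51 FPKM (-0.043, 95% interval -0.23 to 0.14).

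The large subunit genes were called lower for 16 of 17 members tested, beside 23.8% of all genes tested. Their median was -0.49 (SD 0.030). BOP1, PES1 and WDR12 form the complex that matures the large subunit RNAs, and all were called lower, by 21.8 to 45.3% of their mean level. BOP1 was at 7.01 and 9.33 FPKM after vehicle control and 4.14 and 4.80 FPKM after MGH-CP1 (log2 fold change -0.74, standard error 0.12, adjusted p = 0.00179). WDR12 was at 20.2 and 19.98 FPKM against 14.3 and 13.8 FPKM (-0.49, adjusted p = 0.000299), and PES1 (pescadillo) was at 30.5 and 33.8 FPKM against 24.4 and 25.9 FPKM (-0.34, adjusted p = 0.00312). The groups did not overlap in any of the complex's genes, although the vehicle control replicates of BOP1 stood farther apart than those of WDR12. Without a filter on low values, BOP1 was no longer called (adjusted p = 0.0585).

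RRS1, which brings the 5S ribonucleoprotein into the large subunit precursor, was at 9.73 and 11.9 FPKM against 5.64 and 6.74 FPKM (-0.71, adjusted p = 0.00107). EBNA1BP2, a nucleolar factor of large subunit assembly, was at 84.4 and 82.9 FPKM against 48.9 and 54.5 FPKM (-0.69, adjusted p = 8.3e-05). MRTO4, which holds the place of the stalk protein P0 on the precursor, was at 42.1 and 41.2 FPKM against 25.5 and 27.1 FPKM (-0.65, adjusted p = 7.16e-05). These 3 genes lost between 36.9 and 42.7% of their mean level. RRP1B was at 25.0 and 24.5 FPKM against 15.9 and 16.7 FPKM (-0.57, adjusted p = 0.000135). Other called members were the chaperone GRWD1 (-0.57), NIP7 (-0.56), NLE1 (-0.51), NOP16 (-0.43), the helicase DDX18 (-0.43), the nucleolar GTPases GNL3 or nucleostemin (-0.40) and GNL2 (-0.36), and the RNA methyltransferase NOP2 (-0.33). Without a filter on low values NOP16 was no longer called (adjusted p = 0.0643).

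At the lower end of the large subunit step, the helicase DDX56 was at 32.2 and 32.4 FPKM after vehicle control and 27.1 and 27.7 FPKM after MGH-CP1 (-0.23, adjusted p = 0.00618), with no overlap. WDR74, which acts with the remodelling ATPase NVL, was at 12.2 and 14.0 FPKM against 12.4 and 12.1 FPKM, overlapped and was not called (-0.089, 95% interval -0.26 to 0.083). PPAN was at 1.01 and 1.06 FPKM against 1.04 and 0.542 FPKM, from 62, 65, 45 and 23 fragments. It lies on the strand of the overlapping gene P2RY11. It also lies wholly within a listed PPAN-P2RY11 entry of the same strand, which held 0 fragments in every library. How reads shared by such entries were assigned is not given in the sources used here. Whether the low value reflects the expression of PPAN was therefore not tested.

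The 4 nucleolar proteins with several functions were all called lower, beside 23.8% of all genes tested. Their median was -0.68 (SD 0.033). DDX21 (chr10:70715884-70744829, plus strand, in hg19), a helicase acting in RNA polymerase I and II transcription, was at 87.3 and 84.8 FPKM after vehicle control and 47.8 and 50.5 FPKM after MGH-CP1 (log2 fold change -0.80, standard error 0.051, adjusted p = 2.72e-05). NCL (chr2:232318242-232348352, minus strand, in hg19), nucleolin, was at 208 and 207 FPKM against 126 and 130.5 FPKM (-0.69, standard error 0.046, adjusted p = 3e-05). NPM1 (chr5:170814120-170838141, plus strand, in hg19), the histone and ribosome chaperone nucleophosmin, was at 729 and 679.6 FPKM against 445 and 443 FPKM (-0.66, standard error 0.052, adjusted p = 5.37e-05). LYAR, a zinc finger protein of the nucleolus, was at 54.3 and 53.2 FPKM against 41.4 and 41.0 FPKM (-0.38, standard error 0.048, adjusted p = 0.000443). In none of them did the groups overlap. The 45 NPM1 pseudogenes in the table held fragments equal to 0.795 to 1.04% of those of NPM1 itself.

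Expression differed far more between members than between conditions. In vehicle control the median level of the 50 members was 24.9 FPKM, against 10.1 FPKM for genes tested, with 42 members between 10 and 100 FPKM. NPM1, NCL and FBL ranked 1, 2 and 3 and made up 41.7% of the members' summed FPKM, and they kept these ranks after MGH-CP1. DDX21 went from rank 4 to rank 8 and EBNA1BP2 from 5 to 7, whereas NOP10 went from 7 to 4. The sum without NPM1 was 1731 and 1772 FPKM after vehicle control and 1235 and 1281 FPKM after MGH-CP1.

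A wider list of 117 further ribosome biogenesis genes, none of them members, was read in the same fit. Of the 114 tested, 78 were called lower, 3 higher and 33 were not called, with a median log2 fold change of -0.30. Over all genes tested, 23.8% were called lower and 27.1% higher. By step, the called falls were 6 of 10 RNA polymerase I genes and 8 of 10 snoRNP genes. For the small subunit they were 33 of 48 genes, and for the large subunit 31 of 46. In that order the medians were -0.35, -0.32, -0.30 and -0.25. The RNA polymerase I median was thus the lowest by step in the wider list but the highest among the members. Whether steps differ was not tested. The largest falls were those of PAK1IP1 (-0.79, adjusted p = 3.1e-05), LTV1 (-0.77, adjusted p = 0.000149), AFG2A, listed as SPATA5 (-0.77, adjusted p = 0.000413), BRIX1 (-0.71, adjusted p = 0.000156) and PNO1 (-0.70, adjusted p = 0.000139). LTV1 and PNO1 act late in small subunit assembly, and the ATPase AFG2A recycles factors from large subunit precursors.

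The 3 genes of the wider list that rose belong to different steps. TAF1C, a subunit of SL1 like TAF1D, rose from 4.41 and 4.62 FPKM to 7.19 and 7.34 FPKM (log2 fold change 0.58, adjusted p = 0.000477). NOP53, listed as GLTSCR2 and needed for large subunit RNA processing, rose from 21.0 and 24.6 FPKM to 29.6 and 31.0 FPKM (0.40, adjusted p = 0.00314). PIH1D1, part of the R2TP complex that assembles snoRNPs, rose from 59.98 and 64.9 FPKM to 80.6 and 74.0 FPKM (0.30, adjusted p = 0.00425). The groups did not overlap in any of them.

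**Figure D4:**
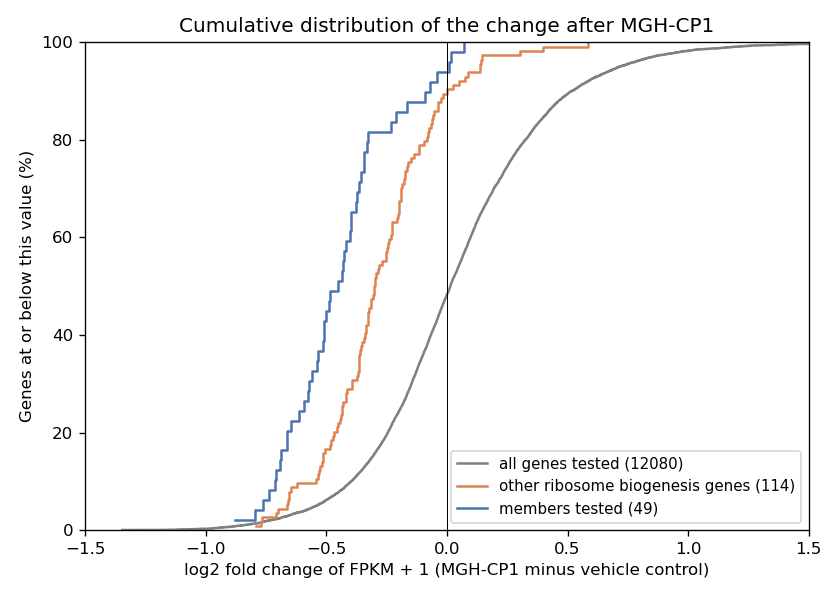
Cumulative percentage of genes (vertical axis) at or below each log2 fold change (MGH-CP1 minus vehicle control, horizontal axis) for all 12080 genes tested, 114 other ribosome biogenesis genes and the 49 members tested. The members' curve lies farthest to the left, with medians of -0.45 for members, -0.30 for the wider list and 0.014 for all genes.

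Some members share their position with other genes. Another listed gene overlaps 27 of the members, and for 15 of them an overlapping gene held in at least 1 library no less than 10% of the member's fragments. Besides POLR1C, RRN3, TAF1D and PPAN these were NHP2, UTP15, NOP14, TSR1, NOP16, RRS1, PES1, WDR12, GNL3, NIP7 and MRTO4. That limit counts the fragments of whole genes, whatever the length of the shared stretch. MRTO4 shared only 14 bases with EMC1 and TSR1 only 10 with SGSM2, while GNL3 shared 4762 with PBRM1. For GNL3 and PBRM1, the overlapping genes are on opposite strands, and without strand their reads in the shared bases cannot be told apart. The fewest fragments on a tested member in any library were 173.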

How the data were processed

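RNA was purified with an RNeasy kit, poly-A selected and sequenced as paired-end reads. The authors deposited FPKM for each of 48162 genes, beside symbols, coordinates and gene lengths. The submitters' processing notes name CASAVA 1.8, STAR and hg19, while the counting tool, its use of strand and the annotation release are not given in the sources used here. Multiplied by gene length, 100% of the values in each library were whole multiples of 1 step within 0.02, so fragments could be recovered.

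Genes whose FPKM averaged 1 or more across all libraries entered the comparison. Their log2(FPKM + 1) values were fitted in R 4.3.3 with limma 3.58.1, using a mean-variance trend in eBayes (prior degrees of freedom 5.97) and two-sided p-values. Adjusted p-values are those of Benjamini and Hochberg for the 12080 genes, and a gene was called when its value was under 0.05. Fold changes are on this scale and understate those of low genes. Tables and figures were made in Python 3.11.15 with pandas 2.3.3 and matplotlib 3.10.9. The script was tested on simulated data. Replicates differed by more than sampling noise (chi-square per degree of freedom 4.38 for vehicle control and 3.16 for MGH-CP1). The SD of a median was taken across the 4 possible pairings of a treated with a control library, which share libraries.

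Members, steps, the wider list and the tests were chosen with earlier results of these data known. Values per library are given, in each step, for the 5 members with the largest and the 2 with the smallest absolute fold change. They are also given for the C/D and H/ACA core members, for PES1, BOP1 and WDR12, and for the nucleolar proteins with several functions. Values of BYSL, RRP9 and PPAN were added after they were seen. Of the wider list, the 5 largest falls and rises among called genes are named, and SNU13 as a C/D core protein. Promoters were those of the 3 largest falls in the table used. Alternatives were a pseudocount of 0.1, other filters, scalings and variance models, limma voom on recovered fragments, the replicate number as a block and leaving out each library.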

Additional observations from a re-analysis of the deposited data

How the results depend on the processing

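The 43 members called lower had a log2 fold change below 0 under each of the 14 alternatives, and 37 of them were called under each one except limma without shared variance between genes. Under that model, 0 members were called lower in all and in each of the 5 steps, and 0 other ribosome biogenesis genes were called lower or higher; at an unadjusted p under 0.05, 37 members and 59 other genes were lower, and only 4 of all genes tested were lower at an adjusted p under 0.05. Otherwise the number of members called lower was between 37, without a filter on low values, and 43, with UBTF, NHP2, RRP9, BYSL, BOP1 and NOP16 lost without the filter, and with a library left out it was from 40 to 42. The members' median ranged from -0.50 to -0.43. Other ribosome biogenesis genes called higher numbered 5 with library totals without mitochondrial genes, 5 with a minimum mean FPKM of 5 and 1 without a filter, and those called lower with a library left out numbered 63 to 75. Uncalled genes changed sign: RRN3 to -0.042 with median-ratio scaling and -0.0023 with quantile normalization, and TAF1D to -0.034 with median-ratio scaling. With a library left out, RRN3 ranged from -0.068 to 0.086, TAF1D from -0.020 to 0.055 and TBL3 from -0.11 to 0.025. Median-ratio scaling moved the median of all genes by -0.048. UBTF and NHP2 were also not called without the trend, and NHP2 not with quantile normalization. Same-numbered libraries share only a number, with a correlation of their deviations of 0.0777 over 2 pairs; with the replicate number as a block 43 members were called lower, and the block changed no call among the members. PPAN, with 23 to 65 fragments assigned to it, fell under the filter of the main fit and was not compared there.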

Other observations

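After the members' values were seen, 3 further lists were made by symbol from the same fit, and their genes are named for their values. Of 12 RNA polymerase II subunits, POLR2D (log2 fold change -0.47) and POLR2A, the largest subunit (-0.42), were called lower and POLR2H (0.25) higher. The median of the 12 was -0.087. POLR2E, POLR2F, POLR2H, POLR2K and POLR2L are subunits of RNA polymerases I and III as well, and their log2 fold changes ran from -0.13 to 0.36. Of 11 RNA polymerase III subunits, 6 were called lower and 1 higher, with a median of -0.26. Beside both lists, 23.8% of all genes tested were called lower and 27.1% higher. The paralogous subunits POLR3G and POLR3GL, which take the same place in alternative forms of RNA polymerase III, moved in opposite directions. POLR3G was at 5.06 and 5.19 FPKM after vehicle control and 2.30 and 2.15 FPKM after MGH-CP1 (-0.93, limma adjusted p = 0.00012), while POLR3GL was at 13.6 and 12.5 FPKM against 15.5 and 16.6 FPKM (0.28, limma adjusted p = 0.00932). Both MGH-CP1 libraries lay below both vehicle control libraries for POLR3G, an ordering seen in 37.4% of genes tested, and above them for POLR3GL.

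Genes for the proteins of the finished cytosolic ribosome were called in both directions, at shares no higher than those of all genes tested. Of 76 ribosomal protein genes tested, 15 were called lower, 14 higher and 47 were not called, beside 23.8% lower and 27.1% higher over all genes tested, and the log2 fold changes had a median of 0.028 and ran from -0.28 to 0.58. RPL6 (-0.28) and RPL4 (-0.26) were the lowest, at 454 and 473 FPKM against 379 and 385 FPKM for RPL6. The highest, RPS10 (0.58), was near the floor, at 1.21 and 2.36 FPKM against 2.99 and 3.13 FPKM, from 24 to 47 fragments. The next highest was RPS21 (0.34). Ribosomal protein genes have many processed pseudogenes, so the division of their reads among copies is uncertain. Whether these lists differ from the members was not tested.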
